A study of Mus musculus with 6 samples.

Results

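Amino acid transporters are membrane carriers of the solute carrier families Slc1, Slc3, Slc6, Slc7, Slc36, Slc38 and Slc43. They were taken by symbol from the mouse annotation as protein-coding genes with the prefix Slc1a, Slc3a, Slc6a, Slc7a, Slc36a, Slc38a or Slc43a followed by a number only. Slc6a6, Slc6a8 and Slc6a12 were left out because their main substrates are taurine, creatine and betaine. Of 58 such symbols, 41 had at least 10 counts summed over the 6 libraries and are described here, out of 54146 genes in the table. The members nearest to that minimum were Slc6a2 with 19 counts, Slc7a11 with 22 and Slc1a7 with 23, and the symbols just below it were Slc7a10 with 8 counts and Slc1a6 with 7. The families held 6 members of Slc1, 2 of Slc3, 8 of Slc6, 11 of Slc7, 3 of Slc36, 8 of Slc38 and 3 of Slc43.

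The kidney filters free amino acids at the glomerulus and takes nearly all of them back in the proximal tubule. Carriers of the apical (brush border) membrane bring them into the cell with sodium or by exchange, and carriers of the basolateral membrane pass them on to the blood. Several work only as pairs: the heavy chain Slc3a1 (rBAT) carries the light chains Slc7a9 and Slc7a13 to the apical membrane, the heavy chain Slc3a2 (4F2hc) carries Slc7a5, Slc7a6, Slc7a7, Slc7a8 and Slc7a11, and Slc6a19 and Slc6a18 need collectrin (Cltrn) in the kidney. Loss of SLC3A1 or SLC7A9 causes cystinuria in humans, loss of SLC7A7 lysinuric protein intolerance and loss of SLC6A19 Hartnup disorder.

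RNA of whole kidney tissue was sequenced from 3 groups of 2 libraries. G2APOL1 mice expressed the G2 risk form of human APOL1 (apolipoprotein L1, whose risk forms are linked to kidney disease) from a transgene that is cell-specific and inducible, G0APOL1 mice expressed the reference form G0 in that way, and WT mice carried no transgene. In all 3 groups, 1 kidney was taken out when the mice were 6 weeks old, and feed with 4% salt followed, so no group lacked surgery or salt. The labels set EC before both transgenes without spelling it out, give neither the inducing agent nor the age at collection, and place all 6 libraries in batch 1. Nothing states that replicate libraries are separate animals, so the p values measure the spread between these samples, which may be technical.

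Library totals ranged from 8490396 to 11800932 counts, and the 41 transporters took 0.335% to 0.351% of the counts in G2APOL1, 0.343% to 0.352% in G0APOL1, and 0.231% to 0.290% in WT. Over the tested genes, the log2 values of replicates correlated at 0.958 in G2APOL1, 0.929 in G0APOL1 and 0.913 in WT. In WT replicate 2, transcripts of the mitochondrial genome took 21.1% of the counts, against 12.6% to 15.9% in the other 5 libraries. Ddx3y, a Y-linked gene, lay between 20.7 and 28.9 CPM (the normalised read count, on the TMM scale) in all 6 libraries. Xist, an X-linked gene, had 4.46 CPM in WT replicate 1, 0.427 CPM in G2APOL1 replicate 2 and 0 in every other library. Defining markers of kidney were present: 12 markers of the proximal tubule summed to 34640 to 56450 CPM, and 3 neuronal markers to at most 4.81 CPM.

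The promoters of 5 members are shown as examples. Slc7a8 rose in both transgenic groups, Slc7a7 and Slc1a4 passed as higher in G2APOL1 alone, and Slc38a2 fell in both groups. Slc7a11, with 22 counts in all, was counted in WT alone and lay below the count filter. Slc1a1, Slc7a9 and Slc7a13, which passed as higher in both groups, are not shown. Each window runs from 250 bases before to 50 bases after a RefSeq transcript start (GRCm38.p6), read 5′ to 3′ on the gene's strand, which is the minus strand for all 5. Capitals mark matches, on either strand, to the letters TGATGNAA, the core of the C/EBP-ATF element through which the factor Atf4 acts in amino acid shortage, or TGACNNNGC, the core of the antioxidant response element. The windows lie at chr14:54781837-54782136 for Slc7a8, chr14:54417895-54418194 for Slc7a7 (1 of 5 starts), chr11:20332664-20332963 for Slc1a4, chr15:96699679-96699978 for Slc38a2 and chr3:50443564-50443863 for Slc7a11. For Slc7a7 the start was chosen because its window held the most matches to TGATGNAA. The 5 members include every member found to hold TGATGNAA.
Slc7a8: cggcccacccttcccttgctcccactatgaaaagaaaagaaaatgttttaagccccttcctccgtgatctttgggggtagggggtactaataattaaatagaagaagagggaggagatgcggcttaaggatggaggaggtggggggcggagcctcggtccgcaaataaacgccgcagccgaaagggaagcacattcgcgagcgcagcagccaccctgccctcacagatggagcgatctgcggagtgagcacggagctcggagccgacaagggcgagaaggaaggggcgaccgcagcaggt
Slc7a7: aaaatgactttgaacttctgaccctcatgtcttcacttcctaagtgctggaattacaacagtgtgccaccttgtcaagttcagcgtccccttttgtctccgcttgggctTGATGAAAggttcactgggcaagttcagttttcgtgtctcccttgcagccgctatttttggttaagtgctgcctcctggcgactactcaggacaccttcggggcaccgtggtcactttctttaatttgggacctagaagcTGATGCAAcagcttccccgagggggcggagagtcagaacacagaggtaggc
Slc1a4: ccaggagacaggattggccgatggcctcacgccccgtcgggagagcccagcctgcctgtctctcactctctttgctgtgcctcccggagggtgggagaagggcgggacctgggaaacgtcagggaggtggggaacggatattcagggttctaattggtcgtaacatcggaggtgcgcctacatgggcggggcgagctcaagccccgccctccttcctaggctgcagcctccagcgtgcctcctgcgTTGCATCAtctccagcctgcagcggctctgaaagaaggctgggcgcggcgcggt
Slc38a2: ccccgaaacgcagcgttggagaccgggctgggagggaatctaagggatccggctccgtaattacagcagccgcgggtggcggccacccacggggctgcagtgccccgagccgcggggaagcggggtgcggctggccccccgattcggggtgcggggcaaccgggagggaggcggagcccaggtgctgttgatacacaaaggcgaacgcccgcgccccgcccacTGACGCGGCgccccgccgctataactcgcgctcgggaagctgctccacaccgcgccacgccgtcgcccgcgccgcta
Slc7a11: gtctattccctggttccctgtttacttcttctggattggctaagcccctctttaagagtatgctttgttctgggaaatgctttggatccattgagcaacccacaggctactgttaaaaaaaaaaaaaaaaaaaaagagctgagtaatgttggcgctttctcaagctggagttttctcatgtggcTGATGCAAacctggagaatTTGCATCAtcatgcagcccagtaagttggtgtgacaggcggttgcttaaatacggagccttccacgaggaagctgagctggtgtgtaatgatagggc

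Of the 41 members, 28 had a RefSeq promoter window, and these had 43 windows in all. TGATGNAA was found in 4 of the 43 windows, of Slc1a4, Slc7a7 and Slc7a11, and 3.97% of all 32851 windows of this length hold it. In Slc7a11 the window held 2 copies in opposite orientation, beginning 66 and 47 bases before the start, and in Slc1a4 a single copy began 4 bases before it. The Slc7a7 window held a copy 141 bases before the start and another beginning 1 base before it. TGACNNNGC was found in 9 of the 43 windows, of Slc36a1, Slc38a2, Slc43a1, Slc6a9, Slc6a13, Slc7a1 and Slc7a6, against 12.4% of all windows. CAAAGTCCA, a site of the proximal tubule factor Hnf4a, was found in Slc3a1 alone, 39 bases before the start (0.475% of all windows), and the core of the Hnf1 site in 0 members (0.399% of all windows). The Slc7a8 window held no match, and within a window no 2 matches overlapped. Windows of a gene can overlap each other. The Slc7a7 copy nearest the start and the Slc7a6 match were each counted in 2 windows, so the window counts hold them more than once. A match describes letters only and shows no binding.

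Levels per transcript length, given as TPM (counts divided by the summed exon length of the gene and scaled to the same total in each library), differed widely. Slc7a13, an apical carrier of aspartate, glutamate and cystine in the last segment of the mouse proximal tubule, was highest, with 306 to 862 TPM over the 6 libraries. Slc3a1, its heavy chain, ranged from 181 to 474 TPM and Slc6a18, an apical carrier of glycine and other small neutral amino acids, from 195 to 372 TPM. These 3 genes made up 62.9% to 74.7% of the summed TPM of the 41 members in each library. Every library of these 3 lay above every library of the next gene, Slc6a13, a carrier of GABA and taurine, at 48.1 to 105 TPM, while the ranges of the 3 themselves overlapped.

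Below them, Slc1a1 (34.1 to 73.6 TPM), Slc3a2 (36.8 to 71.2 TPM), Slc7a7 (36.0 to 72.8 TPM) and Slc7a9 (20.96 to 57.0 TPM) followed with overlapping ranges. The main sodium-driven carrier of neutral amino acids, Slc6a19, came 11th with 9.24 to 31.4 TPM. Transmitter carriers and their relatives spanned a wide range below Slc6a13. Slc6a15, a carrier of branched-chain amino acids and proline, had 5.58 to 13.6 TPM, the glycine carrier Slc6a9 4.07 to 7.13 TPM and the vesicular carrier Slc6a17 2.21 to 3.24 TPM, while the glial glutamate carriers Slc1a2 and Slc1a3 stayed at or under 0.888 TPM. Slc7a11, the cystine and glutamate exchanger, was lowest, at 0 in all 4 transgenic libraries and at most 0.199 TPM in WT.

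**Figure D1:**
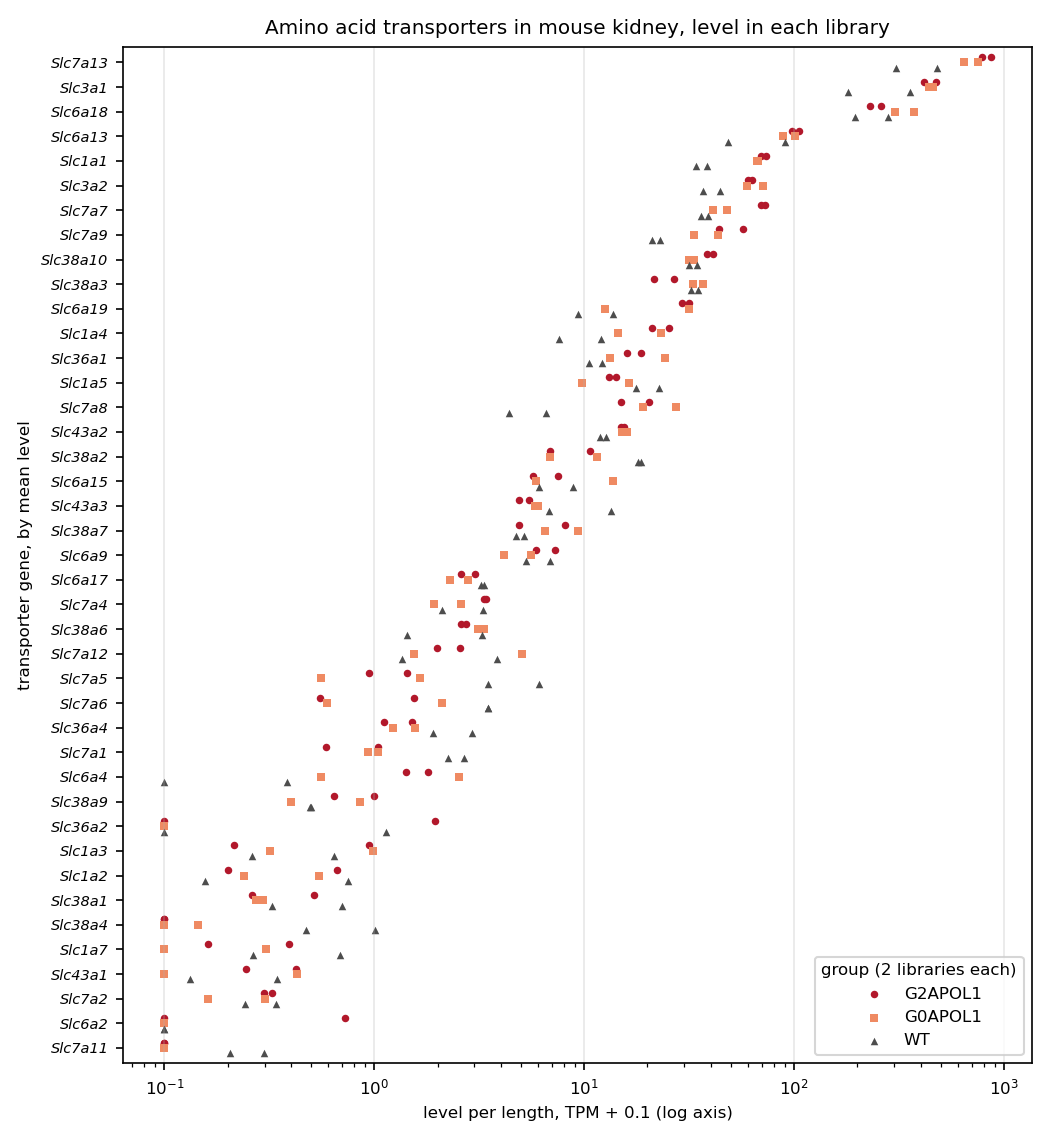
Level per length of 41 amino acid transporters in each of 6 mouse kidney libraries, as TPM + 0.1 on a log axis, ordered by the mean over all libraries. Circles are G2APOL1, squares G0APOL1 and triangles WT. Slc7a13, Slc3a1 and Slc6a18 stand above all others, and the WT triangles lie left of the transgenic points for Slc1a1, Slc7a8 and Slc7a9 and right of them for Slc38a2, Slc7a5 and Slc7a1.

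The first question was what the G2 transgene changed relative to WT, and the same question was asked of the G0 transgene. Of the 41 members, 36 passed the filter on low counts and were tested with edgeR's quasi-likelihood test, with p values adjusted over all 14386 genes and a threshold of 0.05. In G2APOL1 against WT, 7 of 36 rose (19.4%, where 4.57% of all genes rose) and 2 fell (5.56%, where 3.62% of all genes fell). Together these are 25% of the tested members, where 8.19% of all genes passed in either direction. In G0APOL1 against WT, 5 of 36 rose (13.9%, against 4.48% of all genes) and 1 fell (2.78%, against 3.68%), so that 16.7% passed, against 8.17% of all genes. The median log2 fold change of the 36 was 0.23 in G2APOL1 and 0.35 in G0APOL1, where the medians of all genes were -0.04 and 0.02. Both comparisons use the same WT libraries, so their results are not independent.

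Among the 6 apical carriers of the proximal tubule, 4 rose in G2APOL1 and 3 in G0APOL1, with medians of 0.96 and 0.81. Slc1a1, the glutamate and aspartate carrier EAAC1 (chromosome 19, 28835049 to 28913960, GRCm38), had 297 and 315 CPM in G2APOL1, 311 and 287 CPM in G0APOL1, and 169 and 156 CPM in WT. All 4 transgenic libraries lay above both WT libraries, and the replicates of each group were close. The log2 fold change was 0.91 ± 0.18 in G2APOL1 (± SE, from 2 libraries in each group, as throughout; adjusted p = 0.00782) and 0.88 ± 0.18 in G0APOL1 (adjusted p = 0.00902). The gene 4430402I18Rik, on the other strand, overlaps 31.9% of the exonic bases of Slc1a1, had 29.9 and 23.1 CPM in G2APOL1, 25.3 and 26.3 CPM in G0APOL1 and 8.63 and 8.46 CPM in WT, and whether counting used strand, which decides if its reads and those of Slc1a1 were kept apart, is not stated.

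Slc7a9, the light chain that exchanges cystine and dibasic amino acids (chromosome 7, 35448796 to 35466036), had 79.3 and 60.9 CPM in G2APOL1, 50.6 and 59.8 CPM in G0APOL1, and 32.6 and 31.1 CPM in WT. Again no transgenic library reached down to WT, and the rise was 1.14 ± 0.21 in G2APOL1 (adjusted p = 0.00615) and 0.79 ± 0.21 in G0APOL1 (adjusted p = 0.0376). Its heavy chain Slc3a1 had 560 and 491 CPM in G2APOL1, 590 and 515 CPM in G0APOL1, and 435 and 227 CPM in WT. The gap between its WT libraries was wider than that between the higher of them and any transgenic library, and with changes of 0.66 ± 0.26 (adjusted p = 0.150) and 0.74 ± 0.26 (adjusted p = 0.112) it did not pass. Without WT replicate 1, Slc3a1 was at 1.22 in G2APOL1 and 1.29 in G0APOL1. Without WT replicate 2 it was at 0.29 in G2APOL1, so its change depended on which WT library was kept. Prepl, a gene on the other strand, overlaps 26.5% of the exonic bases of Slc3a1 and was at 0.02 ± 0.23 in G2APOL1 and 0.12 ± 0.23 in G0APOL1.

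Slc7a13, the other partner of Slc3a1 (chromosome 4, 19818725 to 19842218), had 960 and 871 CPM in G2APOL1, 911 and 708 CPM in G0APOL1, and 547 and 364 CPM in WT. It rose by 1.01 ± 0.23 in G2APOL1 (adjusted p = 0.0191) and by 0.83 ± 0.23 in G0APOL1 (adjusted p = 0.0444). The ratio of Slc7a13 to Slc3a1 in TPM was 1.82 and 1.88 in G2APOL1, 1.64 and 1.46 in G0APOL1, and 1.33 and 1.70 in WT. That ratio was highest in the G2APOL1 libraries and overlapped between G0APOL1 and WT. Of 6 markers of the last proximal segment, where Slc7a13 is known to reside, 0 passed in either comparison, with medians of 0.14 in G2APOL1 and -0.12 in G0APOL1.

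The neutral amino acid carriers Slc6a19 and Slc6a18 are neighbours on chromosome 13, 1.72 kb apart, and their values differed. Slc6a19 had 75.8 and 81.3 CPM in G2APOL1, 35.3 and 80.9 CPM in G0APOL1, and 24.8 and 37.6 CPM in WT. It was high in both G2APOL1 libraries, while G0APOL1 replicate 1 lay within the WT range. The rise was 1.33 ± 0.35 in G2APOL1 (adjusted p = 0.0476), and the change in G0APOL1 was 0.90 ± 0.35 (adjusted p = 0.164). Slc6a18 had 597 and 523 CPM in G2APOL1, 756 and 845 CPM in G0APOL1, and 662 and 478 CPM in WT. Its G2APOL1 libraries lay inside the WT range and its G0APOL1 libraries above it, at -0.03 ± 0.21 (adjusted p = 0.963) and 0.49 ± 0.21 (adjusted p = 0.188). Their accessory protein collectrin, Cltrn, rose in both, by 0.82 ± 0.20 in G2APOL1 (adjusted p = 0.0263) and 0.97 ± 0.20 in G0APOL1 (adjusted p = 0.0109).

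Among the 6 basolateral carriers, 2 rose in G2APOL1 and 2 in G0APOL1. Slc7a8, the exchanger LAT2 for neutral amino acids (chromosome 14, 54722209 to 54781946), had 38.8 and 52.6 CPM in G2APOL1, 54.0 and 70.0 CPM in G0APOL1, and 11.5 and 18.02 CPM in WT. Each transgenic library held over 2 times the count of the higher WT library. The rise was 1.63 ± 0.28 in G2APOL1 (adjusted p = 0.00385) and 2.07 ± 0.28 in G0APOL1 (adjusted p = 0.000804). In both comparisons it was the largest rise among the members that passed, and no other call in either comparison held whichever library was left out. It stayed at 1.35 to 2.00 in G2APOL1 and 1.79 to 2.43 in G0APOL1.

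Slc7a7, which exports dibasic amino acids in exchange for neutral ones (chromosome 14, 54369442 to 54417780, 304 kb from Slc7a8), had 126 and 119 CPM in G2APOL1, 77.5 and 81.4 CPM in G0APOL1, and 63.9 and 71.0 CPM in WT. The G2APOL1 libraries stood apart from the other 4. It rose by 0.86 ± 0.18 in G2APOL1 (adjusted p = 0.0107) and was at 0.24 ± 0.18 in G0APOL1 (adjusted p = 0.498). The heavy chain of both, Slc3a2, had 110 and 115 CPM in G2APOL1, 119 and 129 CPM in G0APOL1, and 69.5 and 86.4 CPM in WT. It rose in G0APOL1, by 0.67 ± 0.19 (adjusted p = 0.0410), and was at 0.53 ± 0.19 in G2APOL1 (adjusted p = 0.101), although all 4 transgenic libraries lay above WT. The TPM ratio of Slc7a7 to Slc3a2 was 1.22 and 1.11 in G2APOL1, 0.692 and 0.669 in G0APOL1, and 0.978 and 0.875 in WT, so the 3 groups did not overlap. For Slc7a8 to Slc3a2 the ratio was 0.249 and 0.322 in G2APOL1, 0.319 and 0.382 in G0APOL1, and 0.117 and 0.147 in WT.

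The other basolateral members did not pass. Slc38a3, which takes up glutamine for ammonia production, had 73.5 and 58.3 CPM in G2APOL1, 110 and 89.3 CPM in G0APOL1, and 98.0 and 94.3 CPM in WT, with changes of -0.54 ± 0.20 (adjusted p = 0.112) and 0.05 ± 0.20 (adjusted p = 0.927). Slc43a2, a facilitative carrier of large neutral amino acids, was at 0.25 ± 0.18 (adjusted p = 0.455) and 0.34 ± 0.18 (adjusted p = 0.288). Slc7a6, a relative of Slc7a7 found in many cell types, had 3.43 and 1.07 CPM in G2APOL1, 1.28 and 4.73 CPM in G0APOL1, and 8.23 and 8.57 CPM in WT, and was at -1.88 ± 0.73 (adjusted p = 0.143) and -1.49 ± 0.73 (adjusted p = 0.250).

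**Figure D2:**
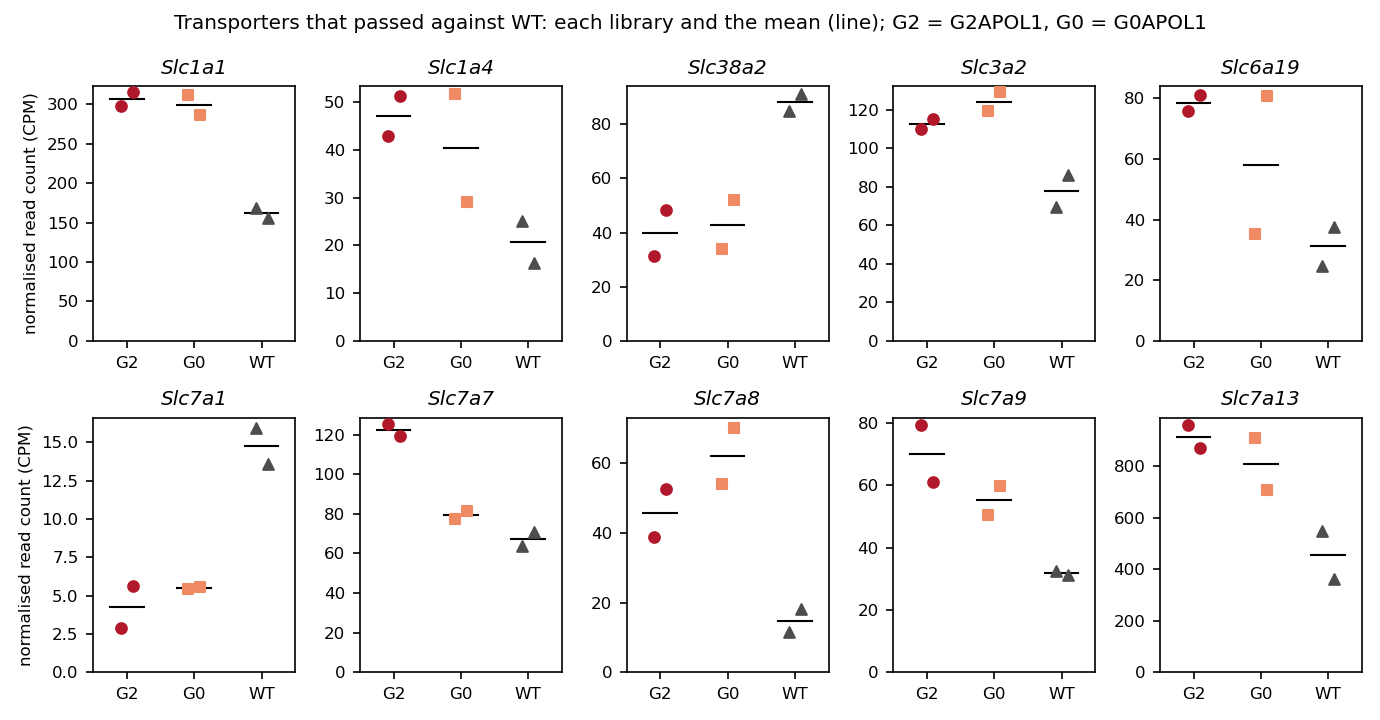
Normalised read count (CPM, axes from 0) in each library of the 10 transporters that passed against WT in at least 1 transgenic group, with the mean of the 2 libraries as a line. Slc7a8 is higher and Slc38a2 lower in all 4 transgenic libraries than in WT. Slc7a7 is highest in the G2APOL1 libraries, with the G0APOL1 libraries slightly above WT, and the G0APOL1 libraries of Slc6a19 are far apart.

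Among carriers that supply many cell types with amino acids, Slc38a2 and Slc7a1 fell and Slc1a4 rose. Of 10 such members, 7 were tested. In G2APOL1 1 rose and 2 fell, and in G0APOL1 0 rose and 1 fell, with medians of -0.64 and -1.04. Slc38a2, the sodium-coupled neutral carrier SNAT2 (chromosome 15, 96687392 to 96699730), had 31.2 and 48.4 CPM in G2APOL1, 34.0 and 51.9 CPM in G0APOL1, and 84.9 and 91.1 CPM in WT. Both transgenic groups lay well below WT and overlapped each other. It fell by 1.15 ± 0.26 in G2APOL1 (adjusted p = 0.0158) and by 1.04 ± 0.26 in G0APOL1 (adjusted p = 0.0252).

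Slc7a1, the cationic carrier CAT1 (chromosome 5, 148327410 to 148399904), had 2.92 and 5.66 CPM in G2APOL1, 5.44 and 5.56 CPM in G0APOL1, and 16.0 and 13.6 CPM in WT. It fell by 1.79 ± 0.46 in G2APOL1 (adjusted p = 0.0308), and in G0APOL1 it was at -1.43 ± 0.45 (adjusted p = 0.0757) with no overlap between the groups. Slc7a5, the exchanger LAT1 for large neutral amino acids, had 1.63 and 2.56 CPM in G2APOL1, 0.961 and 2.96 CPM in G0APOL1, and 6.74 and 12.3 CPM in WT. Its changes of -2.18 ± 0.68 (adjusted p = 0.0700) and -2.28 ± 0.69 (adjusted p = 0.0616) did not pass in edgeR's test. They did not pass in limma-voom either, but did in DESeq2 (adjusted p = 0.0414 and 0.0320). The glutamine carrier Slc1a5 was at -0.64 ± 0.27 (adjusted p = 0.167) and -0.66 ± 0.27 (adjusted p = 0.155), and Slc38a1, another glutamine carrier, at -0.59 ± 0.87 (adjusted p = 0.749) and -1.16 ± 0.89 (adjusted p = 0.504).

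Slc1a4, the carrier ASCT1 of alanine, serine and cysteine (chromosome 11, 20302180 to 20332713), went the other way. It had 42.8 and 51.2 CPM in G2APOL1, 51.6 and 29.0 CPM in G0APOL1, and 25.1 and 16.3 CPM in WT. No transgenic library overlapped WT, and it rose by 1.18 ± 0.31 in G2APOL1 (adjusted p = 0.0315), while G0APOL1 was at 0.96 ± 0.31 (adjusted p = 0.0747).

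Slc7a11, Slc38a4, Slc6a2, Slc1a7 and Slc43a1 lay below the count filter. When they were kept in, with a minimum of 10 counts over the 6 libraries or with no filter, edgeR's test called none of the 5 in any comparison. Slc7a11 had 0 counts in all 4 transgenic libraries and 8 and 14 counts in WT. Against a floor of 3 counts over a group, it was at least 8.04-fold lower in G2APOL1 and at least 6.81-fold lower in G0APOL1 than in WT, a bound that covers counting error only. Slc38a4, a neutral carrier best known from liver and placenta, had 0 and 0 counts in G2APOL1, 1 and 0 in G0APOL1, and 21 and 8 in WT, and was at least 10.6-fold lower in G2APOL1. Against the single count in G0APOL1, WT was 26.9-fold higher, with a 95% exact interval for counting error of 4.47 to 1100. Slc6a2, the noradrenaline carrier, had 19 counts in G2APOL1 replicate 2 and 0 in every other library, so its signal came from 1 library. Slc1a7 and Slc43a1 had at most 10 counts in any library.

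Of the remaining tested members, none of 5 proton-coupled and lysosomal carriers, 7 transmitter carriers and relatives, and 5 members of less known or other function passed in either comparison by edgeR. Among these 17, an unadjusted p under 0.05 was found for 1 member in each of the 3 sets in each comparison, below the share of all genes (3247 of 14386 in G2APOL1 and 3242 in G0APOL1). DESeq2 and limma-voom called 0 of them. Without the low-count filter, edgeR called Slc6a4 higher in both comparisons, Slc43a3 lower in G2APOL1 and Slc36a1 higher in G0APOL1. Without WT replicate 1, it called Slc6a4 and Slc6a13 higher and Slc43a3 lower in both. Slc36a1, the proton-coupled carrier PAT1 of the plasma membrane and lysosome, was at 0.55 ± 0.25 (adjusted p = 0.221) in G2APOL1 and 0.70 ± 0.25 (adjusted p = 0.114) in G0APOL1. The serotonin carrier Slc6a4 had 4.03 and 3.10 CPM in G2APOL1, 6.30 and 1.06 CPM in G0APOL1, and 0.694 and 0 CPM in WT, with changes of 3.28 ± 1.27 (adjusted p = 0.141) and 3.33 ± 1.28 (adjusted p = 0.136). Slc36a2 was counted in G2APOL1 replicate 2 and WT replicate 2 alone, with 29 and 17 counts. The purine carrier Slc43a3, the neighbour of Slc43a1, was at -1.07 ± 0.36 (adjusted p = 0.0950) and -0.80 ± 0.36 (adjusted p = 0.212), and Slc38a10, the highest in its set, at 0.20 ± 0.17 (adjusted p = 0.542) and -0.04 ± 0.17 (adjusted p = 0.941). Transcripts of Slc38a6 matched other genes at 95% identity or more over at least 50% of their length, which leaves its counts uncertain. Slc38a10, Slc43a2 and Slc7a2 each share sequence with 1 overlapping unnamed gene (Gm11769, Gm45606 and Gm26584).

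**Figure D3:**
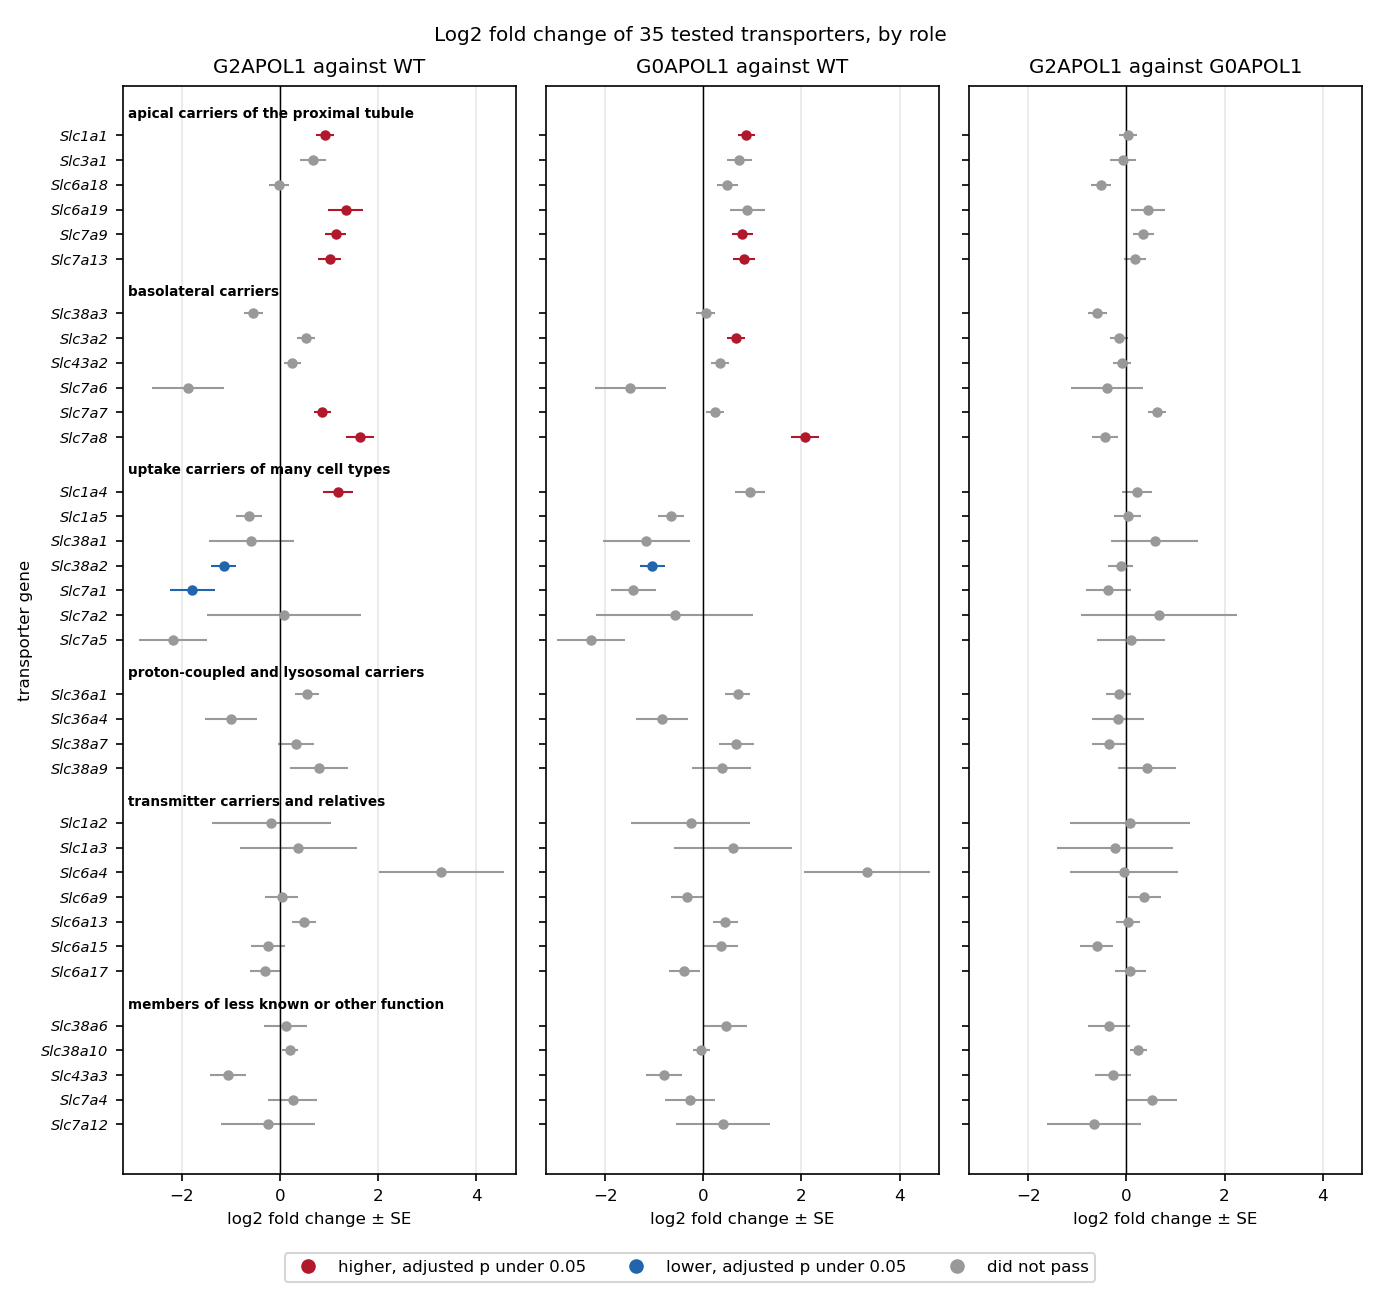
Log2 fold change ± SE of 35 tested transporters, grouped by role, for G2APOL1 against WT, G0APOL1 against WT and G2APOL1 against G0APOL1. Red marks members that rose, blue members that fell and grey members that did not pass; Slc36a2, with 0 counts in 4 libraries, is left out. Red points sit among the apical and basolateral carriers and blue points among the uptake carriers, where Slc1a4 is the only red one, and the panel of G2APOL1 against G0APOL1 has neither.

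Most calls rested on both libraries of a group. In G2APOL1 against WT, leaving out replicate 1 of G2APOL1 ended every call but that of Slc7a8. Without it, Slc38a2 was at -0.83 (adjusted p = 0.251), Slc7a1 at -1.35 (adjusted p = 0.354), Slc7a9 at 0.97 (adjusted p = 0.124), Slc7a13 at 0.97 (adjusted p = 0.164), Slc1a1 at 0.99 (adjusted p = 0.0821), Slc1a4 at 1.34 (adjusted p = 0.0739), Slc6a19 at 1.41 (adjusted p = 0.115) and Slc7a7 at 0.86 (adjusted p = 0.146). Without G2APOL1 replicate 2, Slc7a8, Slc7a9 and Slc38a2 passed, and Slc1a1 was at 0.89 (adjusted p = 0.118), Slc1a4 at 1.07 (adjusted p = 0.178), Slc6a19 at 1.30 (adjusted p = 0.135), Slc7a1 at -2.32 (adjusted p = 0.0672), Slc7a7 at 0.92 (adjusted p = 0.0955) and Slc7a13 at 1.10 (adjusted p = 0.0881). For Slc6a19 the call also ended when either WT library was removed, at 1.07 without replicate 1 (adjusted p = 0.293) and 1.68 without replicate 2 (adjusted p = 0.149). So it did for Slc1a4 without WT replicate 2 (0.92, adjusted p = 0.131) and Slc7a1 without WT replicate 1 (-1.66, adjusted p = 0.0668). With 1 library left in a group, its spread is assumed to be that of the others.

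In G0APOL1 against WT, Slc1a1 lost its call without G0APOL1 replicate 1 alone (0.77, adjusted p = 0.0672). Slc38a2 lost it without that library (-0.81, adjusted p = 0.157) and also without WT replicate 2, at -0.98 (adjusted p = 0.0668). The calls of Slc3a2, Slc7a9 and Slc7a13 were lost without any 1 of 5 of the 6 libraries. Only the fit without WT replicate 2 kept Slc3a2, and only that without WT replicate 1 kept Slc7a9 and Slc7a13; the log2 fold changes ranged from 0.53 to 0.84, from 0.68 to 0.86 and from 0.57 to 1.16. In a fit of the 4 libraries of this comparison, those 3 and Slc1a1 (adjusted p = 0.0501) did not pass. With DESeq2's size factors Slc7a13 did not (adjusted p = 0.0547), nor Slc3a2 with mitochondrial genes left out (adjusted p = 0.0528).

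Markers of the proximal tubule moved with these groups. Of 12 markers of all its segments, 8 rose and 0 fell in G2APOL1 and likewise 8 and 0 in G0APOL1, with medians of 1.16 and 0.99. Their summed level was 56450 and 51770 CPM in G2APOL1, 55420 and 46500 CPM in G0APOL1, and 54580 and 34640 CPM in WT, and the ranges overlap. Kap, an androgen-induced gene, made up most of that sum, with 38310 and 33620 CPM in G2APOL1, 36040 and 29490 CPM in G0APOL1, and 43470 and 25800 CPM in WT. Slc4a4, the basolateral bicarbonate carrier, rose by 1.57 ± 0.22 (adjusted p = 0.00106) and 1.85 ± 0.22 (adjusted p = 0.000330). Lrp2, the endocytic receptor megalin, rose by 1.30 ± 0.21 (adjusted p = 0.00278) and 1.45 ± 0.21 (adjusted p = 0.00139), and Slc22a8, an organic anion carrier, by 1.30 ± 0.21 (adjusted p = 0.00264) and 1.84 ± 0.21 (adjusted p = 0.000295). Of 3 markers of the first segments 2 rose in each comparison, and their sum, 361 and 383 CPM in G2APOL1, 320 and 446 CPM in G0APOL1, and 116 and 145 CPM in WT, did not overlap with WT. Of 5 endothelial markers 4 fell in each comparison, and they summed to 232 and 252 CPM in G2APOL1, 207 and 170 CPM in G0APOL1, and 490 and 515 CPM in WT. In bulk tissue, fewer cells of a type and less RNA per cell cannot be told apart. Of 3 urothelial markers 3 fell in each comparison, with medians of -2.61 in G2APOL1 and -2.04 in G0APOL1. Of 3 red cell markers 3 fell in G2APOL1 and 2 in G0APOL1, of 4 fibroblast and smooth muscle markers 2 in each, of 4 tested macrophage and leukocyte markers 1 in each (C1qa), and of 4 principal cell markers 1 in each (Aqp2). Of 3 markers of the distal convoluted tubule 1 rose in G2APOL1 and 2 in G0APOL1. The part of these cell types in the transporter values, the fall of Slc38a2 and Slc7a1 included, was not tested.

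When the libraries were scaled to the median ratio of those 12 markers in place of all genes, the median of all genes shifted to -1.06 in G2APOL1 and -0.95 in G0APOL1. On that scale none of the apical carriers that had risen passed. Slc1a1 was at -0.11 in G2APOL1 (adjusted p = 0.550) and -0.08 in G0APOL1 (adjusted p = 0.668), Slc7a13 at 0.02 (adjusted p = 0.922) and -0.11 (adjusted p = 0.543), and Slc7a9 at 0.12 (adjusted p = 0.713) and -0.16 (adjusted p = 0.638). Slc6a19, which had risen in G2APOL1, was at 0.27 there (adjusted p = 0.645). Slc7a8 was at 0.56 in G2APOL1 (adjusted p = 0.208) and still passed in G0APOL1, at 1.08 (adjusted p = 0.0353). Slc6a18 passed as lower in G2APOL1, at -1.02 (adjusted p = 0.00114), and in G0APOL1, at -0.44 (adjusted p = 0.0498). Slc38a2 and Slc7a1 are not specific to that segment and were at -2.19 and -2.81 in G2APOL1.

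**Figure D4:**
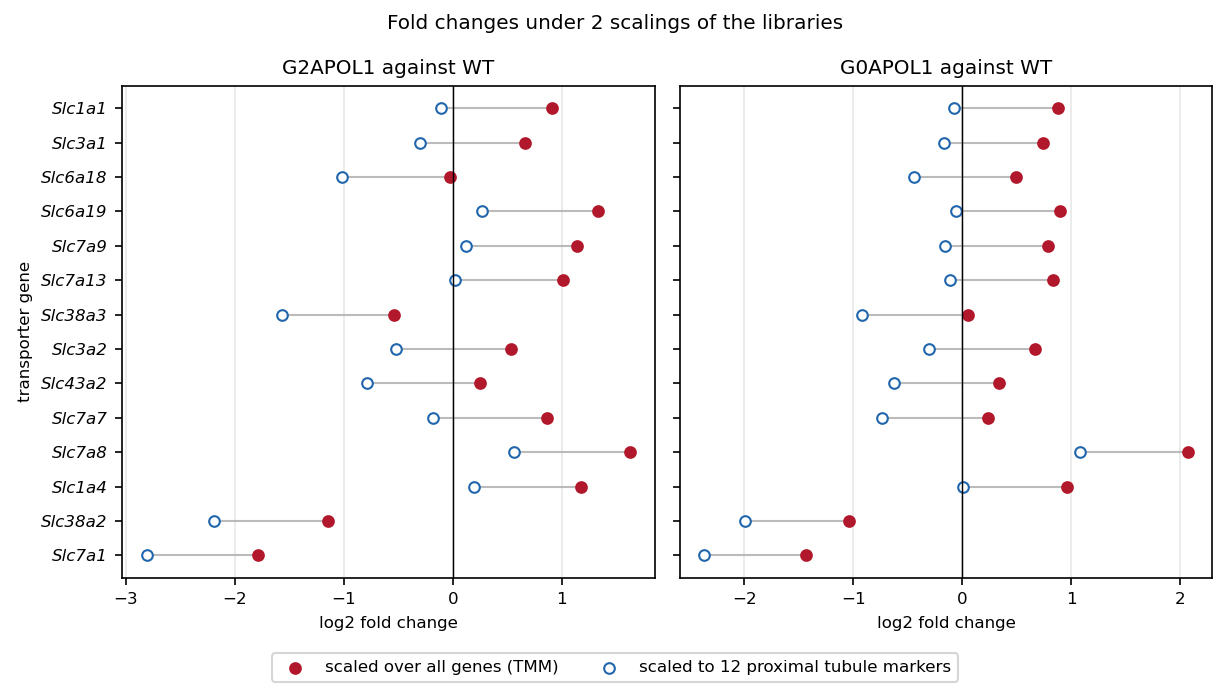
Log2 fold changes of 14 transporters against WT with the libraries scaled over all genes (filled) and scaled to 12 proximal tubule markers (open), for G2APOL1 on the left and G0APOL1 on the right. The second scaling moves every point left by about 1, so that Slc1a1, Slc7a9 and Slc7a13 come to lie near 0, Slc7a8 stays right of 0 and Slc6a18 and Slc38a3 lie left of it.

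The third comparison, G2APOL1 against G0APOL1, asks where the risk form differs from the reference form. In edgeR's test 0 of the 36 tested transporters passed, where 0.480% of all genes did, and DESeq2 and limma-voom also called 0. By edgeR, 3 of the 36 had an unadjusted p under 0.05, a share near that of all genes (970 of 14386). The median log2 fold change of the 36 transporters was -0.01, with -0.02 over all genes. The 3 were Slc7a7 at 0.62 ± 0.18 (adjusted p = 0.291), Slc38a3 at -0.59 ± 0.20 (adjusted p = 0.424) and Slc6a18 at -0.52 ± 0.21 (adjusted p = 0.658). In each of them the G2APOL1 and G0APOL1 libraries did not overlap. The same held for members without such a p, Slc7a8, Slc7a9 and Slc38a10 among them, so it does not set the 3 apart. A p that misses the threshold does not show a like level in both groups. Slc1a4, Slc6a19, Slc7a1 and Slc7a7 passed against WT in G2APOL1 but not in G0APOL1, and the direct comparison gave 0.22 ± 0.30 for Slc1a4 (adjusted p = 0.972), 0.44 ± 0.35 for Slc6a19 (adjusted p = 0.920), -0.37 ± 0.46 for Slc7a1 (adjusted p = 0.971) and the value above for Slc7a7. Slc3a2, which passed in G0APOL1 alone, was at -0.14 ± 0.18 (adjusted p = 0.972).

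Among other amino acid carriers and partners, 2 mitochondrial carriers had the smallest p values in G2APOL1. Of 27 listed genes, 19 were tested. In G2APOL1 5 rose and 1 fell, and in G0APOL1 4 rose and 1 fell, with medians of 0.54 and 0.49. Over all genes, 4.57% rose and 3.62% fell in G2APOL1, and 4.48% rose and 3.68% fell in G0APOL1. Slc25a15, which carries ornithine into mitochondria, rose by 1.46 ± 0.21 (adjusted p = 0.00145) and 1.36 ± 0.21 (adjusted p = 0.00194). Slc25a13, the mitochondrial aspartate and glutamate exchanger, rose by 1.21 ± 0.19 (adjusted p = 0.00242) and 0.85 ± 0.19 (adjusted p = 0.0145). Slc6a20b, of the Slc6 family, had 267 and 284 CPM in G2APOL1, 296 and 280 CPM in G0APOL1, and 151 and 132 CPM in WT. It rose by 0.96 ± 0.18 (adjusted p = 0.00600) and 1.02 ± 0.18 (adjusted p = 0.00409). The creatine carrier Slc6a8 rose in G2APOL1, by 1.00 ± 0.19 (adjusted p = 0.00767), and was at 0.65 ± 0.19 in G0APOL1 (adjusted p = 0.0584). The betaine carrier Slc6a12 was at -1.56 ± 0.46 in G2APOL1 (adjusted p = 0.0539) and fell in G0APOL1, by 2.36 ± 0.48 (adjusted p = 0.00907). The peptide carrier Slc15a2 fell in G2APOL1, by 0.93 ± 0.18 (adjusted p = 0.00824), and was at -0.54 ± 0.18 in G0APOL1 (adjusted p = 0.0930).

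Many enzymes that break down or convert amino acids rose. Of 42 tested, 16 rose and 1 fell in G2APOL1 and 18 rose and 0 fell in G0APOL1, with medians of 0.61 and 0.73. Over all genes, 4.57% rose and 3.62% fell in G2APOL1, and 4.48% rose and 3.68% fell in G0APOL1. The part of the proximal tubule markers' rise in these values was not tested. Gatm, the first enzyme of creatine synthesis and 1 of the markers of the first segments, had 149 and 169 CPM in G2APOL1, 162 and 155 CPM in G0APOL1, and 21.02 and 29.2 CPM in WT. It rose by 2.66 ± 0.21 in G2APOL1 (adjusted p = 1.7e-05) and 2.66 ± 0.21 in G0APOL1 (adjusted p = 2.4e-05). Aass, the first enzyme of lysine breakdown, rose by 1.64 ± 0.22 (adjusted p = 0.00103) and 1.76 ± 0.22 (adjusted p = 0.000538), and Agxt2, a mitochondrial aminotransferase, by 1.53 ± 0.23 (adjusted p = 0.00181) and 2.04 ± 0.23 (adjusted p = 0.000273). Gcsh, of the glycine cleavage system, rose by 1.25 ± 0.18 (adjusted p = 0.00141) and 0.98 ± 0.18 (adjusted p = 0.00499). Dbt, of branched-chain breakdown, was at 0.76 ± 0.23 in G2APOL1 (adjusted p = 0.0556) and rose by 1.82 ± 0.23 in G0APOL1 (adjusted p = 0.000509). Between the transgenes, Gldc, of the same system as Gcsh, was lower in G2APOL1 by a log2 fold change of -1.41 ± 0.28 (adjusted p = 0.0427), with 18.4 and 24.1 CPM in G2APOL1 and 56.4 and 56.2 CPM in G0APOL1.

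A list of targets and sensors of the response to amino acid shortage, in which the kinase Gcn2 and Atf4 act, held calls in both directions. Of 23 listed genes, 20 were tested. In G2APOL1 2 rose and 4 fell, and in G0APOL1 2 rose and 2 fell, with medians of -0.84 and -0.27. The change was positive for 4 of the 20 in G2APOL1 and for 7 in G0APOL1. Over all genes, 4.57% rose and 3.62% fell in G2APOL1, and 4.48% rose and 3.68% fell in G0APOL1. Atf4 itself was at 0.24 ± 0.19 (adjusted p = 0.510) and 0.07 ± 0.19 (adjusted p = 0.884), and Asns, the asparagine synthetase and a classical Atf4 target, at -0.52 ± 0.67 (adjusted p = 0.706) and -0.20 ± 0.67 (adjusted p = 0.913). Shmt2, a mitochondrial enzyme of serine and glycine metabolism, rose by 1.22 ± 0.18 (adjusted p = 0.00186) and 0.96 ± 0.18 (adjusted p = 0.00634), and Castor2, a relative of the arginine sensor Castor1, by 0.88 ± 0.18 (adjusted p = 0.0101) and 0.97 ± 0.18 (adjusted p = 0.00568). Nupr1, a stress-induced nuclear protein, had 8.40 and 14.6 CPM in G2APOL1, 6.19 and 5.80 CPM in G0APOL1, and 67.2 and 41.8 CPM in WT, and fell by 2.25 ± 0.34 (adjusted p = 0.00190) and 3.18 ± 0.36 (adjusted p = 0.000270). Phgdh, the first enzyme of serine synthesis, fell by 1.73 ± 0.40 (adjusted p = 0.0196) and 1.85 ± 0.41 (adjusted p = 0.0143). Ddit4, an inhibitor of mTORC1, fell in G2APOL1 by 2.07 ± 0.34 (adjusted p = 0.00326) and was at -0.14 ± 0.32 in G0APOL1 (adjusted p = 0.867); between the transgenes it was lower in G2APOL1, at -1.93 ± 0.34 (adjusted p = 0.0253).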

How the data were processed

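RNA-seq was measured in 6 mouse kidney libraries. Per the labels' protocols, total RNA was made into libraries with the NEBNext Ultra RNA kit. The authors deposited 1 table of expected counts (estimated reads per gene, unscaled; 1.39% to 1.55% of genes per library are not whole). The submitters' processing notes list mm10 and Cell Ranger ARC 2.0.2 without a role. Which aligner and counter made the table is not given in the sources used here, nor whether counting used strand. Of 54146 genes, 54079 matched GENCODE M21 (GRCm38) by identifier.

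Counts were rounded, filtered with filterByExpr (14386 genes kept), scaled by TMM and fitted in 1 model of 3 group means with edgeR 4.0.16 (glmQLFit, robust, R 4.3.3; 3 residual degrees of freedom, common biological coefficient of variation 0.315). Tests were two-sided with Benjamini-Hochberg adjustment over all genes. An SE is the size of the log2 fold change divided by the square root of F. The procedure was tested on simulated counts, with changes set in randomly drawn genes. In G2APOL1 against WT it recovered 20% of 2-fold and 56% of 4-fold changes, and 8 of 84 calls were false. In G0APOL1 against WT it recovered 21% and 62%, with 8 of 91 calls false. Between the transgenes it recovered 12% and 59%, with 5 of 76 calls false, so most 2-fold changes were missed. Named are all members that passed anywhere, 17 members fixed by name, and up to 4 genes with the smallest p per accompanying list; a few others were named after their values were seen (Slc7a6, Slc43a3, Slc38a10, Slc6a4, Slc36a2, Slc38a4, Slc6a2, Atf4, Asns, Slc6a13, Prepl and 4430402I18Rik among them). Some genes that the rule names are not reported here. The members, lists and roles were chosen with earlier results of these data known. Near-identical copies were sought with minimap2 2.31 and exon overlaps from the annotation. The count of 3 behind a zero and the 95% exact intervals cover counting error only. Alternatives were DESeq2 size factors, other count filters, DESeq2 1.42.0, limma-voom (limma 3.58.1), fits of 4 libraries, a replicate block, no mitochondrial genes and each library left out; scaling to proximal tubule markers was added after seeing the data.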

Additional observations from a re-analysis of the deposited data

How the results depend on the processing

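With 2 libraries per group, the counts of calls depend on single libraries. Leaving out each library in turn gave 1 to 9 transporters higher and 0 to 3 lower in G2APOL1 against WT (7 and 2 with all), and 2 to 9 higher and 0 to 3 lower in G0APOL1 against WT (5 and 1 with all). In G2APOL1 against WT, the count lower was 4 without a low-count filter. In G0APOL1 against WT, 10 were higher and 3 lower without a filter, 2 were lower with a minimum of 10 counts over the 6 libraries and 2 with DESeq2, and 1 was higher in the fit of the 4 libraries compared. With the replicate number as a block, 4 were lower in G2APOL1, and 8 higher and 2 lower in G0APOL1. The titles give numbers but no pairing, and same-numbered libraries deviated together only weakly (correlations of 0.0426 to 0.0956). Between the transgenes, 0 passed under each of these. Over all genes, the calls between the transgenes, 69, came to 245 without a filter, 151 with DESeq2, 121 in the 4-library fit and 120 with the block, and to 27 to 150 with each library left out; those in G0APOL1 against WT, 1175, came to 658 in the 4-library fit and 599 to 1721 with each library left out, and those in G2APOL1 against WT, 1178, to 1805 without a filter and 339 to 1835 with each library left out. The causes were not tested.

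Scaled to the 12 proximal tubule markers, 0 were higher and 14 lower in G2APOL1, and 1 higher and 14 lower in G0APOL1, on a scale where the median of all genes is -1.06 and -0.95. Over all genes, 84 were then higher and 6781 lower in G2APOL1, against 657 and 521. The sign turned in G2APOL1 for Slc1a1 (-0.11), Slc7a7 (-0.18), Slc3a1 (-0.30), Slc36a1 (-0.50), Slc3a2 (-0.52) and Slc43a2 (-0.79), and in G0APOL1 for Slc6a19 (-0.06), Slc1a1 (-0.08), Slc7a13 (-0.11), Slc7a9 (-0.16), Slc3a1 (-0.17), Slc36a1 (-0.25), Slc3a2 (-0.31), Slc6a18 (-0.44), Slc43a2 (-0.63), Slc7a7 (-0.74) and Slc38a3 (-0.92); it follows from the scale. Other sign changes were of values that had not passed. With each library left out in turn, Slc6a18 in G2APOL1 ranged from -0.23 to 0.24 (0.09 without G2APOL1 replicate 2, 0.00 without G0APOL1 replicate 1, 0.24 without WT replicate 1). Slc38a1 in G2APOL1 ranged from -1.39 to 0.33 (0.33 without WT replicate 2), and Slc38a3 in G0APOL1 from -0.16 (without G0APOL1 replicate 1) to 0.21. Of 210 values of called members under all alternatives but that scaling, 168 kept direction and call, 42 lost the call and 0 turned.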
